A study of Mus musculus with 4 samples.

Results

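Macrophages of the fetal thymus were identified among 29510 single cells in 4 droplet scRNA Seq libraries, and 306 cells met the definition. A macrophage was a cell with at least 2 unique molecular identifiers (UMIs, counts of single captured transcripts) each of C1qa and C1qb, at least 1 UMI each of Csf1r and Fcgr3, no Rag1 UMI, and at most 1 Epcam UMI. The definition was applied to raw counts in cells with 200 or more detected genes and a mitochondrial share of no more than 10% of UMIs. The 6 genes in the definition therefore describe how the cells were chosen, and their levels are given as a description only.

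The study examined thymuses of E13 to 13.5 mouse embryos with reduced Tbx1, a transcription factor needed for the pharyngeal structures that give rise to the thymus, and asked how in utero treatments altered them. The 4 libraries were Tbx1+/+ carrier, Tbx1neo2/neo2 carrier, Tbx1neo2/neo2 minoxidil, and Tbx1neo2/neo2 PGE2 (prostaglandin E2), and values of all 4 libraries are given in this order throughout. Mutant embryos, from crosses of heterozygous mice, were homozygous for neo2, an insertion of a neomycin cassette that lowers Tbx1 without abolishing it. Carrier embryos were exposed to ethanol only. All lobes were digested with trypsin before capture, hypoplastic lobes were pooled according to the authors, and the number of embryos per library is not known. Each condition had 1 library, so there was no spread between embryos to compare with, no test between conditions, and no p-value. The intervals in parentheses are exact 95% intervals that cover counting error alone.

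Macrophages are phagocytes that take up dying cells, cell debris, and expelled erythroblast nuclei, degrade them in lysosomes, and return iron and lipids to the tissue. They respond to colony-stimulating factor 1 through the receptor Csf1r and depend on the transcription factor PU.1, encoded by Spi1. In the thymus they clear the many T-lineage cells that die during selection, and in the embryo the first macrophages come from the yolk sac and the fetal liver. The subunits C1qa, C1qb, and C1qc form C1q, which starts the classical complement pathway and coats dying cells for uptake.

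The macrophages numbered 105, 138, 31, and 32 in the 4 libraries and carried 2032376, 2854756, 1090051, and 944991 UMIs in total. Their median depth was 18142, 18609, 36069, and 26197 UMIs per cell, with 3902, 3930, 5321, and 4667 detected genes. The least and most deeply sequenced macrophages had 1526 and 53256 UMIs in the Tbx1+/+ carrier library, 981 and 98796 in the Tbx1neo2/neo2 carrier library, 3633 and 81180 in the minoxidil library, and 2284 and 67874 in the PGE2 library. The minoxidil and PGE2 values therefore rest on 31 and 32 cells, sequenced more deeply than the carrier cells. No macrophage barcode occurred in more than 1 library, although pairs of libraries shared between 4 and 35 barcodes. Mitochondrial UMIs made up a median of 5.56, 5.61, 4.84, and 5.15% of the macrophages' UMIs.

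The limits of the definition cut through a continuum for some genes. Without changing the other criteria, 48 cells were excluded by Csf1r alone, all of them with no Csf1r UMI, and 23 members had exactly 1. The Fcgr3 limit alone excluded 26 cells, and 23 members sat at it. C1qa alone excluded 8 cells, 3 of them with 1 UMI, and C1qb alone excluded none. Rag1 alone excluded 5 cells and Epcam alone 59, of which 8 had 2 Epcam UMIs, and 28 members sat at the Epcam limit.

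Together, the Rag1 and Epcam limits removed 30, 45, 5, and 3 cells that otherwise had the macrophage genes, which was 22.2, 24.6, 13.9, and 8.57% of all such cells. These excluded cells had a median of 42820, 83328, 42627, and 55038 UMIs, more than the retained macrophages. Transcripts of thymic epithelial cells (TECs) reached 2159, 1961, 4683, and 3370 counts per 1000000 UMIs (CPM) in them, and mesenchymal transcripts 892, 4753, 2286, and 43.5 CPM. C1qa itself was at 1131, 174, 1933, and 1623 CPM in the excluded cells, with the lowest level in the Tbx1neo2/neo2 carrier library. Scrublet, a program that scores cells for resemblance to simulated doublets, marked 4, 0, 0, and 0 of the retained macrophages. It marked 567, 0, 70, and 75 of all kept cells and therefore did not work in the Tbx1neo2/neo2 carrier library, so no doublets were removed.

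The sex of the cells differed between libraries and also between cell types of 1 library. Xist, the long noncoding RNA of the inactive X chromosome, marks female cells and transcripts of the Y chromosome mark male cells. In cells thinned at random to 5000 UMIs each, so that depth did not set detection, Y-linked transcripts without Xist were found in 31 of 56 informative macrophages of the Tbx1+/+ carrier library (55.4%, 41.5–68.7) and in 70 of 75 of the Tbx1neo2/neo2 carrier library (93.3%, 85.1–97.8). The minoxidil library had 0 of 22 (at most 15.4%) and the PGE2 library 16 of 16 (at least 79.4%). The Tbx1neo2/neo2 carrier macrophages thus resembled the mesenchymal cells of that library, with 93.7% male, and not its T-lineage cells, with 44.7% (38.0–51.6), or its TECs, with 47.5%. The endothelial cells of that library lay between these groups, with 71.6% (59.3–82.0). Sex and treatment cannot be told apart in the minoxidil library, which had no such male macrophage, whereas the PGE2 comparison could be repeated within male cells. The 2 carrier libraries held cells of both sexes and thus of more than 1 embryo.

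**Figure D1:**
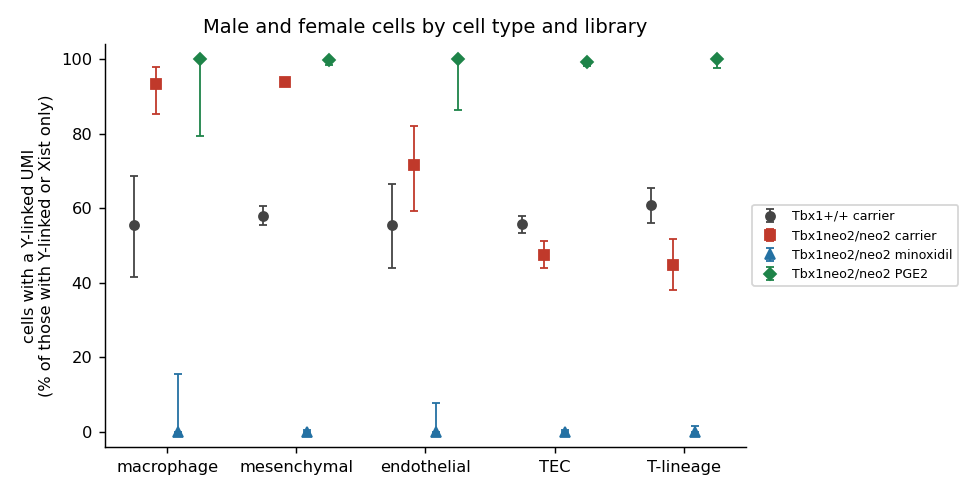
Share of cells (y axis, percent) with Y-linked UMIs and no Xist among cells with either, after thinning to 5000 UMIs, for macrophages and 4 reference cell types (x axis) in each library. Bars on the points are exact 95% intervals; in the Tbx1neo2/neo2 carrier library macrophages (93.3%) and mesenchymal cells (93.7%) lie above T-lineage cells (44.7%) and TECs (47.5%).

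The name macrophage was checked against genes that did not enter the definition. Of 18 macrophage markers 4 were definition genes, and of the other 14, 13 were at or above 50 CPM in every library. The exception was Timd4, a phosphatidylserine receptor of resident macrophages, at 29.0, 22.8, 54.1, and 61.4 CPM. The F4/80 antigen Adgre1 was at 291, 299, 243, and 321 CPM and the fractalkine receptor Cx3cr1 at 702, 663, 660, and 731 CPM. Spi1, which encodes PU.1, was at 407, 345, 494, and 460 CPM. C1qc, which was not used for selection but whose product assembles with C1qa and C1qb, was detected in 97.8, 99.2, 96.6, and 96.7% of macrophages thinned to 5000 UMIs. In T-lineage cells of the same libraries and the same depth it was detected in 0.51, 0.58, 0, and 0%.

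Genes that stood apart from all other kept cells were led by C1qc, whose mean level over the libraries was 499-fold that of the other cells, beside C1qa (488-fold) and C1qb (468-fold). Next were the mannose receptor Mrc1 (458-fold), Ms4a7 (448-fold), the complement C3a receptor C3ar1 (435-fold), the Fc receptor-like gene Fcrls (433-fold), and the chemokine Ccl24 (381-fold). Trem2, a lipid-sensing receptor, was 360-fold above the other cells, the coagulation factor subunit F13a1 348-fold, Csf1r 330-fold, and Adgre1 293-fold. The remaining 13 of the 25 leading genes, ordered by ratio, ran from Ms4a6d (261-fold) to Ms4a6b (68.9-fold) and included Aif1, Apoe, Cx3cr1, Ctss, Pf4, Stab1, Lyz2, and Cd68. Ms4a6b, Ms4a6c, and Ms4a6d are close paralogs, and reads shared between them could move their values. These ratios come from the cells that were selected and were not tested.

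Most promoter windows of the leading genes held the core letters of the PU.1 motif. The promoter windows of C1qb, C1qc, Mrc1, and Pf4 are shown as examples from the 25 leading genes and, for Pf4, because its level differed more than 2-fold between libraries described below. Every window shown holds a match, whereas 17 of the 25 windows of the leading genes do. Each window runs from 250 bases before to 50 bases after the annotated start (RefSeq, GRCm38.p6), is written 5′ to 3′ on the strand of the gene, and has in capitals the letters GAGGAA, the core of the PU.1 motif, or TTCCTC, the same letters on the other strand.
C1qb (chr4:136886151-136886450, minus strand): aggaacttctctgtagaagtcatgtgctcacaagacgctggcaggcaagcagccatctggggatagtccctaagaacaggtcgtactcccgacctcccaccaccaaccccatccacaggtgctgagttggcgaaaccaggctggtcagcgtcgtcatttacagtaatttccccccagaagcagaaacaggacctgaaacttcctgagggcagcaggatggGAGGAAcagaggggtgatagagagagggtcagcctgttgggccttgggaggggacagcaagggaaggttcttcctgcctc
C1qc (chr4:136892865-136893164, minus strand): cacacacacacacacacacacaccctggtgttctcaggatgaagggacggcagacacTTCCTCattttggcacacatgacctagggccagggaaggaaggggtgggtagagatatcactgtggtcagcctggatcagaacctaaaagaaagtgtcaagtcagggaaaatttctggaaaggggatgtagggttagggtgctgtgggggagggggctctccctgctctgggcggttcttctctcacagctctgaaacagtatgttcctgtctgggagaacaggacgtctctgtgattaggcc
Mrc1 (chr2:14229164-14229463, plus strand): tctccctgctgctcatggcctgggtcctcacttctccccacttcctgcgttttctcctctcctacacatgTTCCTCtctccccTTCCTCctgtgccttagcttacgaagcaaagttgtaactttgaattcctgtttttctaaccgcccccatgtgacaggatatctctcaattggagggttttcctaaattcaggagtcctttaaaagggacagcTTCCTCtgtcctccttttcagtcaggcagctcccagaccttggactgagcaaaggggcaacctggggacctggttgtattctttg
Pf4 (chr5:90772185-90772484, plus strand): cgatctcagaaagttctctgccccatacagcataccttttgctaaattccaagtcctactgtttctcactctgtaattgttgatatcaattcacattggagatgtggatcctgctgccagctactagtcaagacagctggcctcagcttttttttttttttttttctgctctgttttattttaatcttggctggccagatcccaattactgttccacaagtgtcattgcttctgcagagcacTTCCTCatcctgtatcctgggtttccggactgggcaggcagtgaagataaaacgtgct
Of the 25 leading genes, 20 had an entry with 25 windows in all, and 17 windows (68%) held the 6 letters on either strand, against 9289 of 32851 windows of all genes (28.3%). In C1qb the match began 30 bases before the start, in C1qc 193 bases before, in Mrc1 at 180, 167, and 35 bases before, and in Pf4 8 bases before. A match describes the letters only and does not show that a factor is bound.

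**Figure D2:**
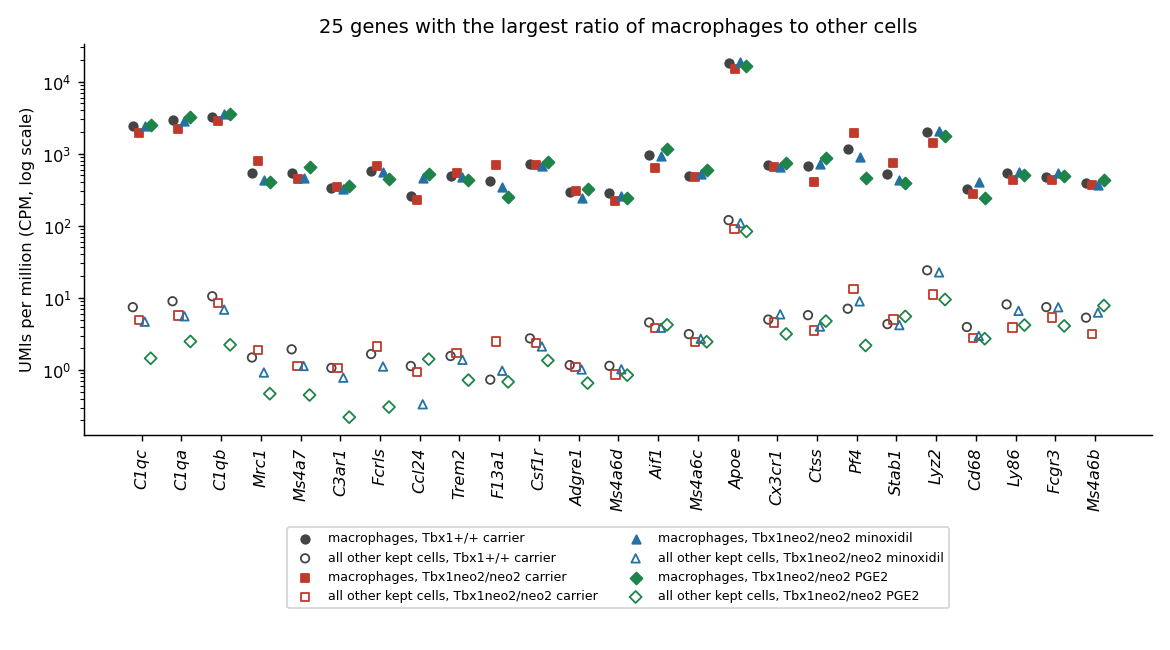
Levels of the 25 leading macrophage genes (CPM, log axis) in macrophages and in all other kept cells, 1 point per library. Every gene is far higher in macrophages in all 4 libraries, for example Apoe at 14947 to 18807 CPM in macrophages and 83.4 to 120 CPM in the other cells.

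Among the most abundant transcripts, Apoe, the apolipoprotein of cholesterol export, was at 17801, 14947, 18807, and 16564 CPM, and of the 5 most abundant genes it was the only one among the 25 leading genes. The other 4 were Tmsb4x (29312 CPM on average), Actb (12400 CPM), and the ferritin chains Ftl1 (11864 CPM) and Fth1 (7142 CPM). Levels are shares of UMIs and are not scaled to gene length. Lyz2, lysozyme, was at 2017, 1388, 2051, and 1745 CPM, but its highest level was in granulocytic cells, where it ranged from 5200 to 14884 CPM, so it did not mark macrophages alone.

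The machinery of uptake and degradation was present at similar levels in all 4 libraries. The 32 lysosomal genes summed to 15972, 13068, 15457, and 14789 CPM in macrophages, against 2307, 2025, 2209, and 2129 CPM in all other kept cells. Among them the cathepsins Ctsb and Ctsd were at 1995 to 2401 CPM and 1078 to 1747 CPM. The following sums leave out C1qa, C1qb, and Fcgr3, since these genes selected the cells. The other 13 complement genes, with C1qc among them, summed to 3212, 2665, 3187, and 3294 CPM, and the other 12 genes for Fc receptors and their adaptors to 5991, 5619, 6029, and 6131 CPM. Fcer1g, the shared signaling chain of Fc receptors, differed little, with 2551, 2480, 2444, and 2473 CPM. Receptors and bridging molecules for apoptotic cells, 21 genes, summed to 3736, 3534, 3606, and 3579 CPM, although the classical receptors Mertk (34.9 to 45.3 CPM) and Axl (31.5 to 60.3 CPM) were at low levels.

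Mrc1 marked most macrophages, whereas the monocyte receptor Ccr2 was found in few. Mrc1 was detected in 68.8, 86.9, 69.0, and 76.7% of thinned macrophages, and Lyve1, a hyaluronan receptor of perivascular macrophages, in 23.7, 43.8, 20.7, and 10%. Ccr2, which guides monocytes out of the bone marrow, was detected in 5.38, 7.69, 17.2, and 6.67%, against 8.55, 12.2, 7.63, and 7.49% of T-lineage cells. The scavenger receptor Cd163 was detected in at most 6.67%. Microglial genes were partly present, with P2ry12 at 48.7 to 69.7 CPM, while Sall1, a regulator that defines microglia, was at 0 to 0.701 CPM.

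Many macrophages carried cell cycle transcripts. At least 3 of the 24 cell cycle genes were detected in 60.2 (49.5–70.2), 60.8, 69.0, and 50% of thinned macrophages, similar to mesenchymal cells (57.9, 50.2, 55.2, and 54.1%) and below T-lineage cells (95, 86.3, 91.6, and 92.5%). Top2a, the topoisomerase of dividing cells, was detected in 29.0, 24.6, 31.0, and 30% of them. Of the 17 or 18 cycle genes that reached 50 CPM in 1 of the libraries compared, only Mki67 differed 2-fold, being lower in the minoxidil than in the Tbx1neo2/neo2 carrier library (86.2 against 191 CPM), while 3.9% of all genes at that level were lower there. The share of thinned macrophages with Mki67 was nevertheless similar, at 27.6% in the minoxidil and 26.9% in the Tbx1neo2/neo2 carrier library.

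Tbx1 itself had 2, 3, 0, and 0 UMIs in the macrophages of the 4 libraries, that is 0.984 and 1.05 CPM in the carrier libraries, and for the counts of 0 a floor of 3 UMIs corresponds to 2.75 and 3.17 CPM. In endothelial cells, by comparison, Tbx1 was at 13.7, 19.0, 18.3, and 23.2 CPM. In all other kept cells together it was at 2.29 and 2.35 CPM in the carrier libraries, from 659 and 443 UMIs. It was lower in the Tbx1neo2/neo2 than in the Tbx1+/+ carrier library in TECs (1.32 against 2.27 CPM) and mesenchymal cells (2.6 against 3.3 CPM). The level in macrophages, at 2 and 3 UMIs, did not distinguish the genotypes.

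Because macrophages engulf other cells, transcripts of other lineages were counted in them and set beside the same lists in other cell types, since free RNA in the droplets reaches all cells. The 177 genes of the lists of other lineages made up 0.167 (0.161–0.172), 0.568 (0.559–0.576), 0.0702 (0.0653–0.0753), and 0.124% (0.117–0.131) of macrophage UMIs. In T-lineage cells, defined by Cd3g and Ptprc without Csf1r, the same lists, which include their own genes, made up 0.867, 1.42, 0.838, and 1.05%. The Tbx1neo2/neo2 carrier library was the highest in both, although 1 of its macrophages held 8434 of the 16201 UMIs, and without the richest macrophage of each library the shares were 0.147, 0.275, 0.0471, and 0.101%.

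T-lineage transcripts were counted in macrophages selected for no Rag1 UMI, which can lower their level. The 11 T-lineage genes in the files summed to 8.86 (5.25–14.0), 6.31 (3.74–9.97), 6.42 (2.58–13.2), and 30.7 CPM (20.6–44.1), from 18, 18, 7, and 29 UMIs. In the PGE2 library 62.1% of these UMIs came from 1 cell, and without it the level was 12.1 CPM. No T-lineage UMI was found in 89 of 105, 124 of 138, 24 of 31, and 26 of 32 macrophages. The same genes were at 15.7, 33.5, 13.9, and 24.1 CPM in mesenchymal cells and at 60.6, 50.9, 50.3, and 49.7 CPM in TECs, whereas the macrophage-gene cells excluded by the Rag1 or Epcam limits had 366, 340, 12, and 12.4 CPM. The level in macrophages can therefore not be read against background, and the share of engulfed T-lineage cells among the excluded cells was not tested.

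Globin transcripts, which mark erythroid cells, were at 210, 3151, 123, and 262 CPM in macrophages. A single macrophage of the Tbx1neo2/neo2 carrier library, with 25701 UMIs, held 8410 UMIs of globin, 93.5% of the globin UMIs of all macrophages in that library. Without it the level was 206 CPM and the 4 libraries lay between 123 and 262 CPM. T-lineage cells had 1375, 5152, 1727, and 2721 CPM and mesenchymal cells 2263, 2589, 602, and 1595 CPM, so that, leaving out this cell, globin was lower in macrophages than in either cell type of every library. The 12 other erythroid genes were at 3.44, 6.66, 0, and 2.12 CPM. Globin UMIs were nevertheless spread widely, being found in 89, 132, 28, and 31 macrophages.

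Mesenchymal transcripts had the highest sum of the foreign groups in every library but the Tbx1neo2/neo2 carrier, where the single macrophage described above put globins first. They were at 712, 1792, 257, and 493 CPM, led by the collagen Col3a1. Their distribution was uneven, since the 5 macrophages with the most held 68.9, 61.6, 90.7, and 95.7% of them. Without the richest cell of each library they were at 593, 1415, 42.3, and 264 CPM, and globins without theirs at 139.7, 206, 118, and 259.8 CPM. The median macrophage had 41.8, 97.3, 31.8, and 7.92 CPM of mesenchymal transcripts, below its 129.7, 194, 112, and 234 CPM of globin, while the highest cell of each library had 8926, 12523, 4624, and 6144 CPM. Mesenchymal cells themselves, defined by Pdgfra and Col1a2 without Ptprc, had 9579, 10082, 10695, and 12584 CPM. In T-lineage cells these genes were at 323, 1178, 197, and 197 CPM and in TECs at 491, 1176, 266, and 178 CPM. The Tbx1neo2/neo2 carrier library was thus the highest in macrophages, T-lineage cells, and TECs alike, and it also held 4628 of the 8491 mesenchymal cells. Cartilage genes were likewise highest in that library, at 19.2, 215, 6.42, and 5.29 CPM in macrophages and 35.1, 254, 38.5, and 21.4 CPM in T-lineage cells. Whether free RNA, doublets, or engulfed cells carried these transcripts was not tested.

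Of the remaining lists, that of TEC genes was lowered by the definition, since the limit on Epcam removed 27, 44, 4, and 3 cells. In the cells retained, TEC genes were at 344, 49.0, 102, and 144 CPM, but 55.3% of the Tbx1+/+ carrier UMIs came from 1 cell, without which the level was 157 CPM, and T-lineage cells had 108, 58.8, 69.7, and 56.6 CPM. Pth, the parathyroid hormone, reached 25.1 CPM in macrophages of the Tbx1+/+ carrier library, where the 4 parathyroid genes summed to 31.5 CPM in macrophages and to 36.1 CPM in T-lineage cells. In the other libraries the parathyroid genes were at 0.701, 0, and 0 CPM in macrophages. B-lineage genes were at 56.8 to 97.4 CPM, nearly all from Cd79b, while Pax5 was at 0. Endothelial genes were at 45.3, 108, 34.9, and 31.8 CPM and myogenic genes at 28.0, 181, 22.9, and 10.6 CPM, and in the Tbx1neo2/neo2 carrier library 62.3 and 52.7% of them came from 1 cell each, not the same cell. Innate lymphoid genes, led by Ccl5 in the carrier libraries and by the granzyme Gzma in the drug libraries, were at 34.4, 17.2, 10.1, and 56.1 CPM. Neural and glial genes were at 22.1 to 51.7 CPM, mesothelial genes at 1.06 to 26.6 CPM, and megakaryocyte genes at no more than 6.4 CPM. Granulocytic genes were at 24.1, 8.41, 9.17, and 18.0 CPM. The mast cell genes were at 0.350 to 11.6 CPM, and the dendritic cell genes at 38.5 to 59.0 CPM, with Clec9a and Ccr7 at 0.

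**Figure D3:**
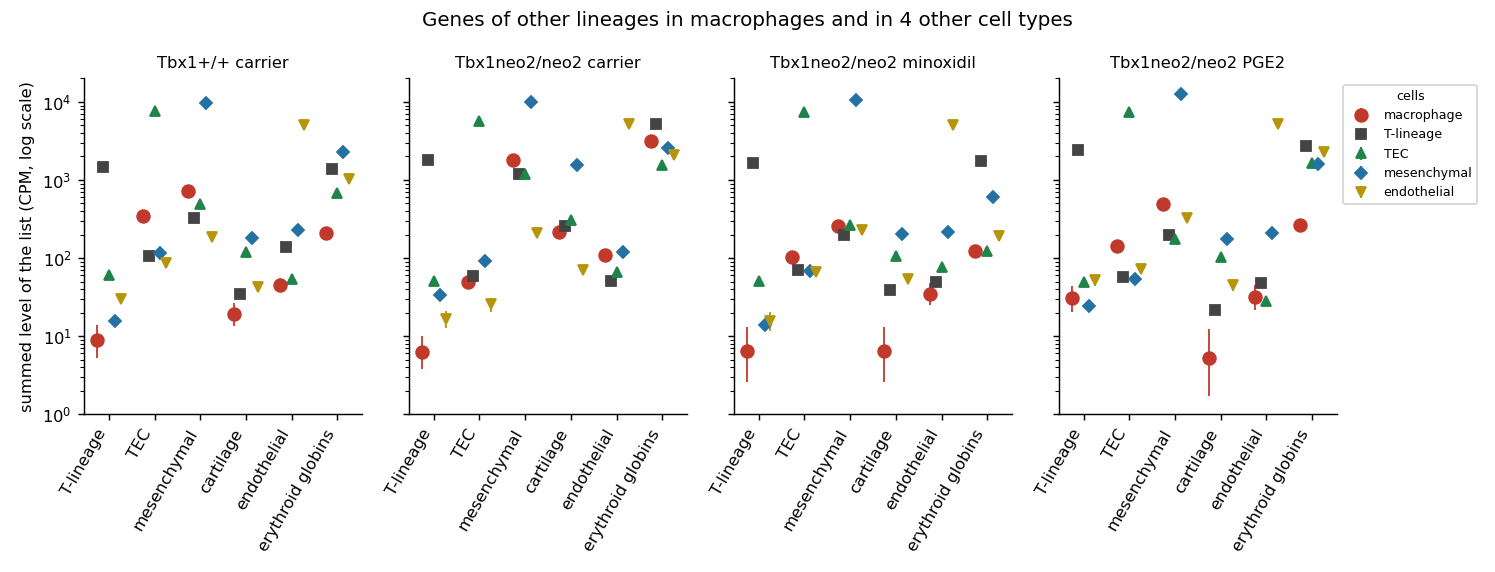
Summed level (CPM, log axis) of gene lists of other lineages in macrophages and in reference cell types, 1 point per library. In macrophages the T-lineage list lies between 6.31 and 30.7 CPM, while the mesenchymal list is highest in the Tbx1neo2/neo2 carrier library (1792 CPM).

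Macrophages made up 0.915 (0.749–1.11), 1.29 (1.09–1.52), 0.968 (0.659–1.37), and 0.771% (0.528–1.09) of the kept cells. The interval of the Tbx1neo2/neo2 carrier library overlapped those of the Tbx1+/+ carrier and minoxidil libraries and met that of the PGE2 library at 1.09%. As a share of the cells with the pan-leukocyte gene Ptprc, they made up 2.95 (2.38–3.62), 10.5 (8.73–12.5), 3.83 (2.56–5.48), and 2.22% (1.47–3.21), and here the Tbx1neo2/neo2 carrier library stood above the other 3. Its total of Ptprc-positive cells was 1055, against 3049 in the Tbx1+/+ carrier library with a similar number of kept cells. The share of kept cells and the share of leukocytes thus answered differently, and neither is a count per lobe. Ptprc was scored in raw counts without thinning, and kept cells were shallowest in the Tbx1neo2/neo2 carrier library. Their median was 14108 UMIs there, against 21125, 41084, and 34790 in the other libraries. The effect of depth on the share of leukocytes was not tested.

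Between the Tbx1neo2/neo2 and Tbx1+/+ carrier libraries, few genes of the macrophages differed. The called inflammatory, chemokine, interferon-response, and immediate early genes were all lower in the Tbx1neo2/neo2 carrier library, and 7 of 9 mesenchymal genes were higher. A gene was called when its levels differed at least 2-fold and reached 50 CPM in 1 of the libraries compared. Of 3036 genes with that level, 48 were higher (1.58%) and 52 lower (1.71%), with a median log2 ratio of −0.00. Among 633 genes enriched in macrophages, with at least 50 CPM on average and at least 2-fold the level of the other kept cells, 2 were higher (0.316%) and 25 lower (3.95%), at a median of −0.11. This enriched set was defined after the data had been seen. Of the 100 called genes, 74 differed at least 2-fold in the same direction in the other kept cells. In the library where the gene was higher, 42 had over 20% of their UMIs in 1 cell. Without the tenth of cells richest in transcripts of other lineages, 17 genes were higher and 39 lower.

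Cxcl2, which attracts neutrophils, was at 177, 18.2, 129, and 158 CPM, a log2 ratio of −3.28 (−3.73 to −2.85) between the carrier libraries. The cytokine Il1b was at 103, 20.7, 135, and 84.7 CPM (log2 ratio −2.31, −2.76 to −1.89), and the stress-induced factor Atf3 at 214, 38.9, 272, and 296 CPM (−2.46, −2.77 to −2.15). For all 3 genes the Tbx1neo2/neo2 carrier library was the lowest, and the other 3 lay within 2-fold of each other. In that library 51% of the Il1b UMIs came from 1 cell. Of the inflammatory genes with sufficient level, 4 of 9 were lower and none higher (median −0.99), as were 6 of 12 chemokines (−0.88), 4 of 7 interferon-response genes (−1.07), and 4 of 16 immediate early and dissociation-induced genes (−0.64). By comparison, 1.71% of all genes and 3.95% of macrophage-enriched genes were lower. Nfkbia, the inhibitor of NF-kappaB, was at 264, 82.7, 244, and 274 CPM, and Fos at 901, 321, 987, and 1300 CPM. Cxcl10, an interferon-induced chemokine, was at 422, 135, 293, and 296 CPM, whereas Jun, at 555, 373, 565, and 438 CPM, did not reach a 2-fold difference.

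The same direction was found outside the macrophages. Between the carrier libraries the summed inflammatory genes had a ratio of 0.442 in macrophages (1753 against 774 CPM) and of 0.487 in all other kept cells (539 against 263 CPM). The immediate early genes, which include those induced by tissue dissociation, had a ratio of 0.676 in macrophages, 0.627 in the other cells, and 0.511 in mesenchymal cells. Atf3 had a log2 ratio of −2.46 in macrophages and −3.56 in the other cells, and Fos one of −1.49 and −2.32. Cxcl16, the chemokine ligand of Cxcr6, differed by −1.10 in macrophages (136 against 63.4 CPM) and by −0.03 in the other cells, and Ccl4 by −1.06 and 0.14, and their calls held under 7 and 9 of 11 alternative settings. The part of cell handling in these library-wide differences was not tested.

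The highest and lowest ratios named here and for the drug libraries leave out genes of which 1 cell held over 20% of the UMIs in the higher library. By this rule, genes that were lower in the Tbx1neo2/neo2 carrier macrophages, from the 10 lowest ratios, included Socs3, a feedback inhibitor of cytokine signaling (53.6 against 8.76 CPM, 6.12-fold lower), Dnase1l3, an enzyme that degrades DNA of dying cells (124 against 25.6 CPM, 4.87-fold lower), and the interferon-induced GTPase Gbp2 (138 against 31.5 CPM, 4.39-fold lower). Arl5c (6.32-fold), Rab20 (4.15-fold), and Ccrl2 (3.96-fold) were also lower. Xist was at 184, 19.3, 696, and 0 CPM, following the sex of the cells. The 10 highest ratios under the same rule were led by Fibin, at 0.984 CPM (2 UMIs) against 65.2 CPM (log2 ratio 6.05, 4.18 to 9.11), followed by Dbn1 (4.33-fold higher), Postn (31.0 against 114 CPM), Enah, and Cdkn1c (239 against 808 CPM). These genes were not macrophage-enriched, and in the other kept cells of the same libraries Fibin was at 4.12 and 248 CPM and Cdkn1c at 737 and 2396 CPM.

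Of the resident genes 1 of 11 was called, and it was higher, against 1.58% of all genes higher and 1.71% lower. Lyve1 was at 230, 482, 284, and 63.5 CPM, and the Tbx1neo2/neo2 carrier library was the highest (log2 ratio 1.07, 0.91 to 1.22, to Tbx1+/+ carrier, against 1.87 in the other kept cells). In the Tbx1+/+ carrier library 26% of the Lyve1 UMIs came from 1 cell, in the minoxidil library 49%, and in the PGE2 library 48%. The call of Lyve1 held under 7 of 11 alternative settings. The median of the 11 genes was 0.52, against −0.00 for all genes. Mrc1 was at 543, 802, 435, and 411 CPM, F13a1 at 417, 692, 340, and 247 CPM, Dab2, an endocytic adaptor, at 557, 1005, 527, and 449 CPM, and the scavenger receptor Stab1 at 526, 753, 432, and 397 CPM. Pf4, the chemokine platelet factor 4, was at 1171, 1963, 912, and 461 CPM. For each of these genes the Tbx1neo2/neo2 carrier library was the highest and the PGE2 library the lowest, although the intervals of the minoxidil and PGE2 libraries overlapped for Mrc1, Stab1, and Dab2. Of the 12 resident genes that reached 50 CPM in a library 7 had this order, whereas Timd4, Ccl24, and Igf1 were highest in the PGE2 library, and Timd4 and Ccl24 were lowest in the Tbx1neo2/neo2 carrier library. Of the Ccl24 UMIs in the PGE2 library, 48% came from 1 cell. In endothelial cells, which also express Lyve1, the resident genes summed to 331, 323, 309, and 796 CPM. Whether endothelial transcripts contributed to the levels in macrophages was not tested.

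**Figure D4:**
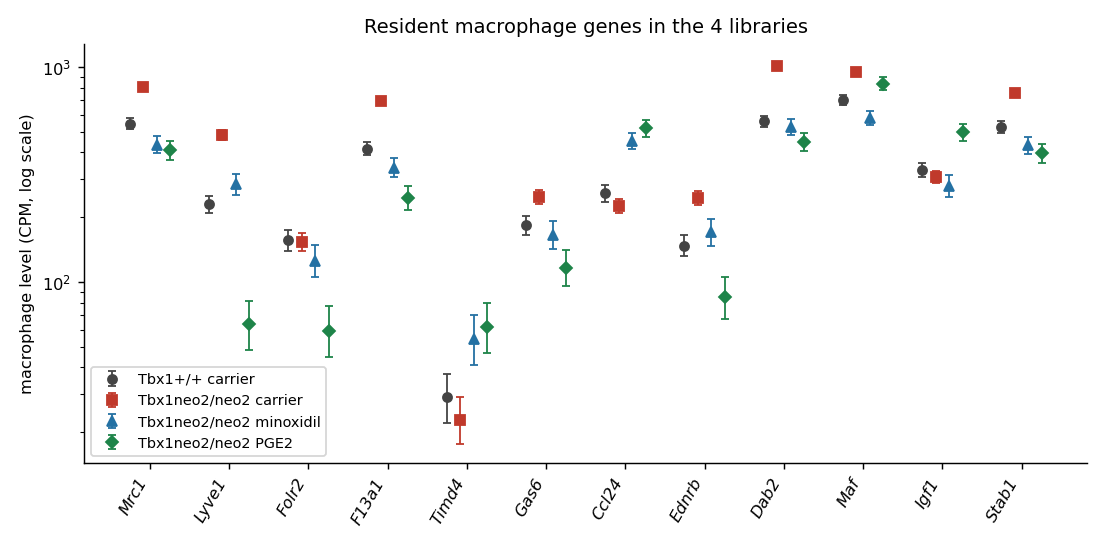
Levels (CPM, log axis) of resident macrophage genes in the macrophages of each library, with exact 95% intervals for counting error. Mrc1, F13a1, Dab2, Stab1, and Lyve1 are highest in the Tbx1neo2/neo2 carrier library and lowest in the PGE2 library, while Timd4 and Ccl24 run the opposite way. In the PGE2 library 48% of the Ccl24 UMIs came from 1 cell.

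The minoxidil library, compared with the Tbx1neo2/neo2 carrier library, had more inflammatory and antigen-presentation transcripts and fewer mesenchymal transcripts. Of 3028 genes, 103 were higher (3.4%) and 118 lower (3.9%), with a median of −0.07, and among 635 macrophage-enriched genes 46 were higher (7.24%) and 6 lower (0.945%), with a median of 0.09. Of the 221 called genes, 106 differed at least 2-fold in the same direction in the other kept cells. In the library where the gene was higher, 108 had over 20% of their UMIs in 1 cell. The balance depended on the processing. Without the tenth of cells richest in transcripts of other lineages, 82 genes were higher and 43 lower, and with TMM scaling 124 and 88. The inflammatory list had 8 of 10 genes higher (median 1.41), the chemokines 6 of 12 with 1 lower (0.98), the interferon-response genes 3 of 6 (0.79), and the immediate early genes 6 of 16 (0.66). Atf3 was 7.01-fold higher and Bcl2a1b, an inhibitor of apoptosis with close paralogs, 4.38-fold higher (146 against 641 CPM). Atf3 had a log2 ratio of 2.81 in macrophages and 4.07 in the other kept cells, and Bcl2a1b one of 2.13 and 1.14. Ccr2 was at 27.7 against 106 CPM.

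The invariant chain Cd74 was at 217, 56.0, 565, and 358 CPM (log2 ratio 3.33 for minoxidil and 2.67 for PGE2). Of its UMIs in the minoxidil library, 46% came from 1 cell, and that library's class II genes H2-Aa (138 CPM), H2-Ab1 (130 CPM), and H2-Eb1 (105 CPM) came from 1 cell at 95.3, 94, and 98%. When the definition was applied after thinning, their log2 ratios became −1.29, −2.12, and −0.46, and class II expression in the minoxidil macrophages rests on a single cell. The class I genes, which all nucleated cells use, were also lowest in the Tbx1neo2/neo2 carrier library, with H2-K1 at 252, 140, 355, and 491 CPM and B2m at 1245, 681, 1350, and 1555 CPM. The antigen-presentation genes summed to 2328, 1233, 3358, and 3304 CPM in macrophages and 758, 406, 833, and 1126 CPM in the other cells, so the Tbx1neo2/neo2 carrier library was the lowest in both. H2 genes are near-identical in part, and their separate values are uncertain.

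Several of the highest ratios of the minoxidil library were not particular to macrophages. Nme2 (12.8, 9.81, 72.5, and 13.8 CPM), Bloc1s1 (24.6, 22.8, 101, and 30.7 CPM), and Pgk1 (57.1, 46.2, 153, and 60.3 CPM) were high in the macrophages of that library and also stood out in the other cells of that library, at 96.2, 74.8, and 242 CPM. Nme2 and Pgk1 have near-identical copies elsewhere in the genome, so their counts are uncertain. Xist, at 19.3 against 696 CPM, and the Y-linked Ddx3y, at 0 in the minoxidil library, followed the sex of the cells. The lowest ratios under the 20% rule included those of Fibin, which was at 0 and is at least 23.7-fold lower against a floor of 3 UMIs, Itm2a (12.4-fold lower), Cdkn1c (808 against 65.1 CPM), Auts2 (11.9-fold lower), and Postn (114 against 11 CPM). Of the minoxidil UMIs of Itm2a and Cdkn1c, 78.9% each came from 1 cell, and when the definition was applied after thinning their log2 ratios became −0.99 and −0.57, within 2-fold.

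Of 12 resident genes compared between the minoxidil and Tbx1neo2/neo2 carrier libraries, 2 were higher, 1 was lower, and 9 stayed within 2-fold (3.4% of all genes were higher and 3.9% lower), at a median log2 ratio of −0.65. F13a1 was lower (−1.02, −1.19 to −0.86). Higher were Timd4 (log2 ratio 1.25) and Ccl24, a chemokine for eosinophils, at 258, 226, 452, and 519 CPM, although the minoxidil level of Ccl24 was only just past 2-fold and its call held under 5 of 10 alternative settings. Pf4 had a log2 ratio of −1.11 (−1.20 to −1.01). The calls of F13a1 and Pf4 held under 6 and 7 of 10 alternative settings. Heme oxygenase Hmox1 was at 183, 135, 320, and 67.7 CPM, but 68% of the minoxidil UMIs came from 1 cell, and the ratio turned to −0.64 with a mitochondrial limit of 5%. Of the 12 genes for potassium channels and minoxidil-converting enzymes none reached 50 CPM, and Kcnj8, a pore subunit of the ATP-sensitive channel that minoxidil sulfate opens, was at 18.2, 2.45, 5.50, and 19.0 CPM. Its partner Abcc9 was at 10.8, 3.50, 7.34, and 10.6 CPM, and the sulfotransferase Sult1a1 at 2.95, 3.50, 7.34, and 7.41 CPM.

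The PGE2 library had fewer transcripts of resident genes and more of inflammatory and antigen-presentation genes than the Tbx1neo2/neo2 carrier library. Of 3092 genes, 134 were higher (4.33%) and 101 lower (3.27%), with a median of −0.04, and among 639 macrophage-enriched genes 64 were higher (10%) and 14 lower (2.19%), with a median of 0.14. The PGE2 and minoxidil comparisons share the same carrier library, whose level enters both. Among macrophages with Y-linked UMIs and no Xist UMI, 27 in the PGE2 and 114 in the Tbx1neo2/neo2 carrier library, 268 genes were called, 153 higher and 115 lower. Of the 235 called genes, 124 differed at least 2-fold in the same direction in the other kept cells. In the library where the gene was higher, 89 had over 20% of their UMIs in 1 cell. Of the 12 resident genes compared, 6 were lower and 2 higher, with a median of −1.03. Lyve1 had a log2 ratio of −2.92 (−3.32 to −2.55), and in the other kept cells it had one of 2.84. F13a1 (692 against 247 CPM), Folr2, a folate receptor of resident macrophages (153 against 59.3 CPM), the bridging molecule Gas6 (249 against 116 CPM), the endothelin receptor Ednrb (245 against 84.7 CPM), and Dab2 were the other 5. The call of Gas6 held under 6 of 11 alternative settings, with log2 ratios from −1.15 to −0.25, and those of F13a1, Folr2, Ednrb, and Dab2 under 9 or 10. Pf4 was at 1963 against 461 CPM (−2.09, −2.23 to −1.95), and the share of thinned macrophages with Pf4 was 86.2% against 56.7%.

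Among the genes that were higher with PGE2, the phospholipase B domain gene Plbd1 was at 3.85 against 68.8 CPM (17.9-fold), the long noncoding RNA Gm26532 at 8.41 against 116 CPM (13.8-fold), and Clec4n, the fungal pattern receptor dectin-2, at 32.9 against 145 CPM (4.4-fold). In the other kept cells Gm26532 had a log2 ratio of 2.84 and Plbd1 one of 1.48, whereas Clec4n was at 0.169 to 0.409 CPM in them. The phosphatase Dusp1 was at 169, 48.3, 125, and 340 CPM, and the ubiquitin-editing inhibitor Tnfaip3 at 37.4, 12.3, 54.1, and 66.7 CPM, with log2 ratios of 1.73 and 2.02 in the other kept cells. Complement C3 was at 27.1, 11.6, 14.7, and 80.4 CPM, and the cholesterol sensor Nr1h3 at 18.2, 8.06, 9.17, and 50.8 CPM. For both genes the PGE2 library was the highest of all 4, including the Tbx1+/+ carrier library. The inflammatory list had 8 of 10 genes higher (median 1.54), the immediate early list 8 of 17 (0.85), and the antigen-presentation list 6 of 7 (1.81). By comparison, 4.33% of all genes and 10% of macrophage-enriched genes were higher with PGE2. Insulin-like growth factor Igf1 was at 331, 307, 280, and 497 CPM and did not reach 2-fold.

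**Figure D5:**
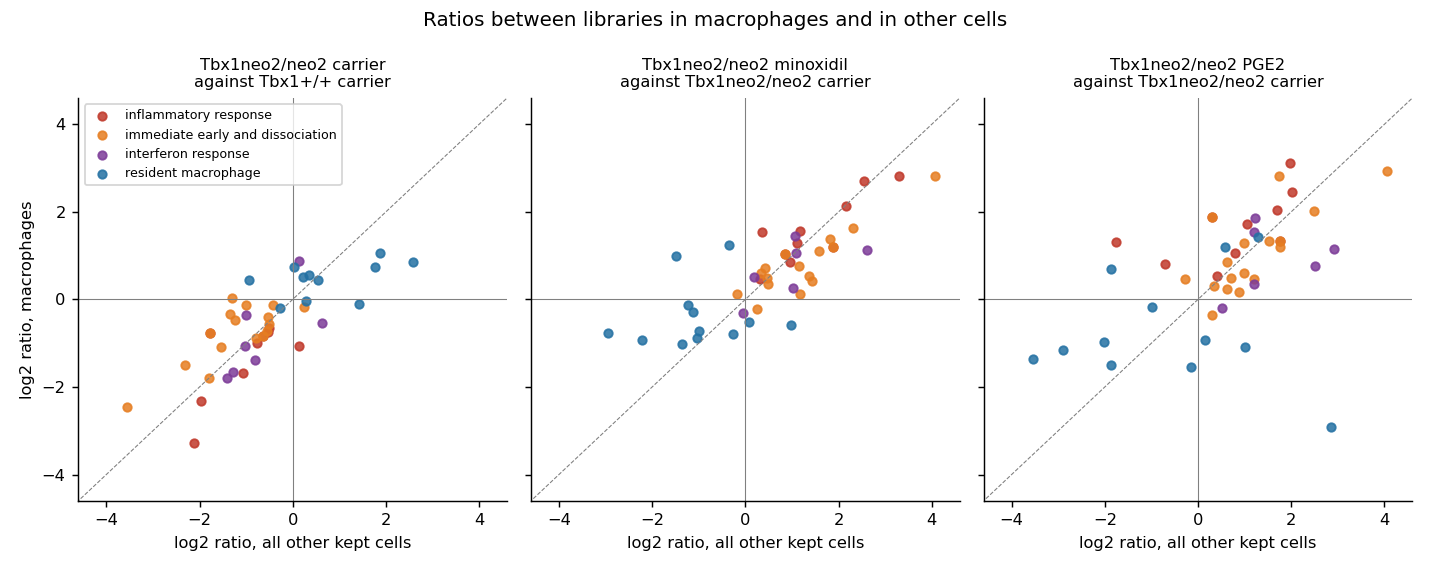
For each gene of the inflammatory, immediate early, interferon-response, and resident lists with at least 50 CPM, the log2 ratio between libraries in macrophages (y axis) against the log2 ratio in all other kept cells (x axis), 1 panel per comparison. Points near the diagonal moved alike in both. Atf3 had the same sign in both but larger ratios in the other cells (−3.56, 4.07, and 4.05) than in macrophages (−2.46, 2.81, and 2.93). Lyve1 in the PGE2 panel lies at −2.92 in macrophages and 2.84 in the other cells.

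Of 20 genes of the prostaglandin pathway 7 reached the level needed for a call in each comparison, and none was called. Their median log2 ratios were 0.11, −0.04, and −0.23. Hpgds, the synthase for PGD2, was at 294, 315, 267, and 255 CPM, Ptgs1 at 133, 103, 122, and 164 CPM, and the degrading enzyme Hpgd at 141, 152, 149, and 160 CPM. The PGE2 receptors were too low to be called, as Ptger4 was at 16.7, 2.80, 17.4, and 22.2 CPM, with the Tbx1neo2/neo2 carrier library the lowest, and Ptger2 at no more than 1.06 CPM. The list of genes induced by cAMP, the second messenger of both receptors, had 4 genes to compare, of which 2 were lower in the Tbx1neo2/neo2 carrier library (median −1.34), and 2 and 3 were higher with minoxidil and PGE2 (0.93 and 2.05). Over all genes 1.71% were lower in the first comparison, and 3.4 and 4.33% were higher with minoxidil and PGE2, and 4 genes are too few to set against these shares.

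Between the carrier libraries 1.58% of all genes were higher and 1.71% lower, shares at which a short list can have no called gene. None was called there in the following lists of uptake, degradation, and protein folding. These were the lysosome, with none of 27 and 26 genes called in the first 2 comparisons and 3 of 25 higher with PGE2 (4.33% of all genes were higher and 3.27% lower), and the engulfment machinery, with none of 16 and 16 and 1 of 16. Receptors for apoptotic cells had none of 8, 1 of 9 higher, and 1 higher and 2 lower of 10. With minoxidil, 3.4% of all genes were higher and 3.9% lower. Complement had C3 as the 1 of 8 genes higher with PGE2 and none otherwise, and genes of the unfolded protein response had none of 8 in each comparison. The antigen-processing protease Ctss was nonetheless at 671, 401, 725, and 861 CPM and the saposin precursor Psap at 844, 464, 836, and 1002 CPM, again lowest in the Tbx1neo2/neo2 carrier library.

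Of the monocyte genes, 1 of 6 was higher and 1 lower between the carrier libraries, 2 of 7 were higher and 3 lower with minoxidil, and 2 of 7 were higher and 2 lower with PGE2, against 1.58 and 1.71, 3.4 and 3.9, and 4.33 and 3.27% of all genes. Plac8 was at 125, 18.6, 365, and 122 CPM and Vcan, a matrix proteoglycan that mesenchymal cells also express, had log2 ratios of 2.67, −2.82, and −3.93. Between 26 and 60% of the Plac8 UMIs of a library came from 1 cell, and the PGE2 ratio of 2.71 turned to −0.93 without the Rag1 and Epcam limits. Osteopontin, encoded by Spp1, was at 60.5, 161, 117, and 27.5 CPM, and its ratio of 1.41 between the carrier libraries turned to −0.15 without these limits. Among transcription factors, none of 14 was called between the carrier libraries, 1 of 17 was higher and 1 lower with minoxidil, and 4 of 17 were higher with PGE2. Batf3, a factor of dendritic cells and macrophages, was higher in both drug libraries (29.5, 13, 55, and 60.3 CPM), and Klf2 was higher with PGE2 (153, 121, 162, and 277 CPM). In iron and heme metabolism 3 of 10 genes were higher with minoxidil and none was called in the other comparisons, and the iron exporter Slc40a1 was at 129, 86.5, 181, and 98.4 CPM. The scavenger receptor Cd36 was at 110, 120, 112, and 46.6 CPM, and Cybb, the catalytic subunit of the phagocyte oxidase, at 237, 161, 286, and 356 CPM.

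The genes that varied most between macrophages of 1 library included some held by few cells and Apoe, which was found in every thinned macrophage. After thinning, the ratio of variance to mean in the Tbx1+/+ carrier library was highest for Cxcl9, an interferon-induced chemokine, at 70.6, with 79.8% of its UMIs in 1 cell and detection in 5 of 93 cells. In the PGE2 library 90% of Cxcl9 likewise came from 1 cell (48.4). In the Tbx1neo2/neo2 carrier library the globin Hbb-bs led at 835, from the single cell described above. Apoe was at 52.7, 31.6, 45.8, and 56.9 in the 4 libraries, ranking first in the minoxidil and PGE2 libraries, and was detected in 93 of 93, 130 of 130, 29 of 29, and 30 of 30 cells. The histone Hist1h2ap, which has near-identical copies, was at 310, 293, 2165, and 533 CPM and had a ratio of 34.2 in the minoxidil library.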

How the data were processed

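Thymic lobes of E13 to 13.5 embryos were profiled in 4 droplet libraries, 1 per condition. The authors deposited UMI counts per gene and barcode for barcodes called as cells, with no normalization. The submitters' processing notes name Cell Ranger 5.0.1, Seurat, and mm10, and the handling of intronic reads is not stated. In the order used above, the files held 11908, 11364, 3362, and 4471 barcodes with 292687940, 194023208, 151740600, and 156363845 UMIs over 27998 genes, and 11474, 10683, 3201, and 4152 cells passed the filters with a median of 21125, 14108, 41084, and 34790 UMIs.

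Counts were summed over the macrophages of a library and scaled to their total (CPM), with exact Poisson intervals, and shares of cells carry Clopper-Pearson intervals. Detection and sex were scored in cells thinned to 5000 UMIs, which left 93, 130, 29, and 30 macrophages. Genes named were the 25 with the highest ratio to other kept cells at 200 CPM or more, the 15 most abundant, the 10 highest and lowest ratios per comparison without genes of which 1 cell held over 20% of the UMIs in the higher library, and called genes of 26 fixed lists, and other genes of these lists were named after their values had been seen. T-lineage, TEC, mesenchymal, endothelial, and granulocytic cells were taken by gates on raw counts that left cells of mixed type out. Since the definition and the lists were chosen with earlier results of these data known, no list is independent evidence. Calculations used Python 3.11.15, numpy 2.4.6, scipy 1.17.1, pandas 2.3.3, and matplotlib 3.10.9, Scrublet as in scanpy 1.11.5, and edgeR 4.0.16 (R 4.3.3) for TMM scaling. The comparison code was tested on simulated data. Cells were not treated as replicates. Some genes that met the naming rule are not reported here.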

Additional observations from a re-analysis of the deposited data

How the results depend on the processing

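No paired analysis was possible because each condition had 1 library and no replicate, so that no test was run. Values are given in the order of the libraries or, for counts of called genes (100, 221, and 235), of the 3 comparisons. The macrophage share per Ptprc-positive cell was 2.95, 10.5, 3.83, and 2.22%. With a mitochondrial limit of 5% the share of kept cells was 0.518% (Tbx1+/+ carrier) and 0.888% (Tbx1neo2/neo2 carrier), and without the Rag1 and Epcam limits 1.18 and 1.71%. The other 24 shares moved by less than their intervals. Calls rose to 296, 577, and 564 at 20 CPM, to 1215, 1583, and 1374 at 10 UMIs, and to 286, 579, and 551 at a 1.5-fold difference. They were 316, 400, and 520 at the 5% mitochondrial limit, 249, 530, and 615 without the Rag1 and Epcam limits, 115 in the minoxidil comparison when the definition followed thinning, and 56 (Tbx1neo2/neo2 carrier) and 125 (minoxidil) without the tenth of cells richest in foreign transcripts. The other 26 counts were within 1.5 times. Among macrophages with Y-linked UMIs and no Xist UMI, an alternative chosen after seeing the data, the counts were 109 (Tbx1neo2/neo2 carrier) and 268 (PGE2). The percentage of calls that were higher (48.0, 46.6, and 57.0) moved by more than 10 points in these cases. It became 58.5 for minoxidil with TMM scaling, and 31.4 for the first comparison and 70.6 for PGE2 with a mean of per-cell CPM. At 20 CPM it was 36.2 for minoxidil and 45.9 for PGE2, at 10 UMIs 69.1, 22.3, and 31.4, and at the 5% mitochondrial limit 59.8 for the first comparison and 45.4 for PGE2. It was 61.4 for the first comparison without the Rag1 and Epcam limits, 61.7 for minoxidil when the definition followed thinning, and 57.2 for minoxidil without the highest Scrublet scores. Without the tenth of cells richest in foreign transcripts it was 30.4 for the first comparison and 65.6 for minoxidil.

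The share of UMIs on foreign lists became 0.153, 0.401, and 0.112% (Tbx1+/+ carrier, Tbx1neo2/neo2 carrier, PGE2) as a mean of per-cell values, 0.111, 1.34, 0.0864, and 0.0709% at the 5% mitochondrial limit, and 0.579% (Tbx1neo2/neo2 carrier) at 20%. It was 0.137, 0.547, and 0.101% (Tbx1+/+ carrier, Tbx1neo2/neo2 carrier, PGE2) with higher minimums for the 4 macrophage genes, 0.394, 0.909, 0.233, and 0.172% without the Rag1 and Epcam limits, and 0.221, 0.613, 0.147, and 0.0785% when the definition followed thinning. Without Scrublet doublets it was 0.131% (Tbx1+/+ carrier), and without the 5% of cells with the highest Scrublet scores, an alternative chosen after seeing the data, 0.123, 0.507, 0.0471, and 0.113%. In each setting that gave all 4 values, the Tbx1neo2/neo2 carrier library was the highest.

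Of 1731 ratios of named genes under the alternatives, 1310 stayed within their counting intervals, 414 moved, and 7 changed sign, and 134 of the 1731 were no longer 2-fold in either direction. These 134 leave out H2-Aa and H2-Ab1 with minoxidil after thinning, which became 2-fold the other way. The 7 were Hmox1 with minoxidil (−0.64 at the 5% mitochondrial limit), Spp1 between the carrier libraries (−0.15) and Plac8 with PGE2 (−0.93) without the Rag1 and Epcam limits, Plac8 with PGE2 without the highest Scrublet scores (−0.45), and H2-Aa (−1.29), H2-Ab1 (−2.12), and H2-Eb1 (−0.46) with minoxidil after thinning. The causes were not tested, apart from the single cells named in the report. Atf3 between the carrier libraries ranged from −3.11 to −2.12, and Lyve1 with PGE2 from −4.51 to −1.99. A single cell can decide a value, as for globins among 138 macrophages of the Tbx1neo2/neo2 carrier library and for class II genes among 31 of the minoxidil library. At these depths a floor of 3 UMIs corresponds to 1.48, 1.05, 2.75, and 3.17 CPM.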
